A study of Rattus norvegicus with 21 samples.

Results

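The integrated stress response genes described here are 10 genes, chosen by name from the 26597 genes of the deposited tables: Atf4, Atf3, Ddit3, Ppp1r15a, Trib3, Chac1, Asns, Psat1, Gdf15 and Fgf21. The tables place Ppp1r15a, Fgf21 and Psat1 on chromosome 1, Chac1 and Trib3 on chromosome 3, Asns on chromosome 4, Ddit3 and Atf4 on chromosome 7, Atf3 on chromosome 13 and Gdf15 on chromosome 16 (20411167 to 20413750, in a build that the sources used here do not name). All 10 were found in all 4 tables, and their total read counts were followed across 6 groups of rat left ventricle libraries. The rats were of the F-344 Brown/Norway strain, with 1 library per rat. The female groups were 24-month rats given relaxin (RLX, 400 µg/kg/day for 14 days from a subcutaneous osmotic mini pump; rats 1, 2, 4 and 6), 24-month controls given the sodium acetate vehicle (CTRL; rats 2, 4, 5 and 6) and 9-month controls given the same vehicle (rats 1, 3, 4 and 5). The male groups were 24-month RLX rats (2, 3 and 7), 24-month CTRL rats (8, 11 and 12) and 9-month CTRL rats (2, 3 and 4). Relaxin is a peptide hormone of the insulin superfamily, and the comparisons ask what it does in the aged ventricle (24-month RLX over 24-month CTRL) and what age does there (24-month CTRL over 9-month CTRL). The RLX and the aging comparison of a sex share their 24-month CTRL libraries, so their values are not independent of each other. Female and male libraries were loaded on the sequencer at different concentrations, so sex and loading cannot be told apart. Rats given RLX at 9 months were not analysed here.

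The integrated stress response is a shared answer of cells to amino acid shortage, unfolded protein in the endoplasmic reticulum, viral RNA and heme shortage. Kinases that sense these states phosphorylate the translation initiation factor eIF2, which lowers general protein synthesis while the mRNA of the transcription factor ATF4 is translated more. ATF4, often with CHOP (encoded by Ddit3) and ATF3, turns on genes of amino acid uptake and synthesis, feedback inhibitors, and the secreted proteins GDF15 and FGF21, which heart and other tissues release under stress. ATF4 is controlled to a large extent at translation, which RNA counts do not measure.

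ATF4 and C/EBP proteins bind together to composite elements made of a part of each factor's site, and these were searched for in the RefSeq promoters (assembly GRCr8, 250 bases before to 50 bases after each start site). Of the 10 genes, 9 had a promoter in the table, and Atf3 had none. The motif TGATGNAA, read on both strands, lay upstream of the start site of Fgf21, Chac1 and Trib3, and was found in 3.98% of the 33469 promoters. These 3 stretches are shown because they are the members' composite-element letters. Capitals mark the match, which reads as the reverse complement of the motif, with 20 bases on either side.
Fgf21 (chr1:105221492-105221539, minus strand, match at bases -143 to -136 from the start): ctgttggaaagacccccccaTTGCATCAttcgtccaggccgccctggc
Chac1 (chr3:126795944-126795991, plus strand, match at bases -167 to -160 from the start): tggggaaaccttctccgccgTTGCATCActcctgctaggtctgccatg
Trib3 (chr3:161275527-161275574, minus strand, match at bases -21 to -14 from the start): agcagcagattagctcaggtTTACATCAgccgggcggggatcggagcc

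The Ppp1r15a promoter held the palindrome TGACGTCA, the cAMP response element bound by proteins of the ATF and CREB family, which 1.83% of the promoters held. It is shown because Ppp1r15a had the relation with Gdf15 described further on, and was chosen after its values were seen. The promoter windows of Gdf15 held no match to this element, nor did those of the other members with a promoter. Capitals again mark the match.
Ppp1r15a (chr1:105139635-105139682, minus strand, match at bases -66 to -59 from the start): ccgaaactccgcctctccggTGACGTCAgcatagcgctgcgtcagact
The consensus of the endoplasmic reticulum stress element was in none of the 9 members' windows and in 0.0657% of all promoters. A match describes letters in a window and is not a measured binding site.

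The libraries held 13619241 to 17861724 counts in females and 11997512 to 19027947 counts in males. Within groups, no 2 libraries agreed within sampling noise, the lowest chi-square per degree of freedom over the 27 pairs being 13.31; pairs across groups were not compared. Of the 8 ventricular cardiomyocyte markers all 8 were detected. Their sum was 29910 to 33240 CPM (counts scaled to library size, with TMM factors over the 21 libraries) in male RLX and 39230 to 41160 CPM in male 24-month CTRL. Male 9-month CTRL libraries spanned 29370 to 41270 CPM. In females the sum was 34490 to 41360 CPM with RLX, 28070 to 33310 CPM in 24-month CTRL and 36700 to 42000 CPM in 9-month CTRL. The 6 macrophage markers summed to 340.9 to 616.7 CPM in female RLX, 590.0 to 733.7 CPM in female 24-month CTRL and 298.2 to 406.4 CPM in female 9-month CTRL. In males they summed to 445.7 to 622.5 CPM with RLX, 473.8 to 541.5 CPM in 24-month CTRL and 508.9 to 719.1 CPM in 9-month CTRL. The 6 fibroblast markers summed to 1773 to 2245 CPM in female RLX, 2541 to 3462 CPM in female 24-month CTRL and 1623 to 2130 CPM in female 9-month CTRL, and to 2121 to 3450 CPM in male RLX, 2421 to 3029 CPM in male 24-month CTRL and 2241 to 4246 CPM in male 9-month CTRL. Red blood cell markers reached 11200 CPM in female RLX rat 4 and 1402 CPM in female 24-month CTRL rat 6, and atrial markers 6648 CPM in female 24-month CTRL rat 5. In bulk tissue, fewer cells of a type and less RNA per cell cannot be told apart, and the part of these differences in the values below was not tested.

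Per transcript length, the members fell into an abundant and a scarce set. Over the 21 libraries Atf4 averaged 282 ± 77.8 RPKM (reads scaled to transcript length and library size, as deposited; SD), Atf3 218 ± 80.9 RPKM, Ddit3 126.5 ± 40.7 RPKM and Ppp1r15a 80.8 ± 19.9 RPKM. Gdf15 stood between the sets, at 9.49 ± 5.95 RPKM. Asns averaged 1.23 ± 0.592 RPKM, Trib3 1.22 ± 0.625 RPKM, Chac1 0.712 ± 0.481 RPKM, Psat1 0.390 ± 0.328 RPKM and Fgf21 0.0844 ± 0.114 RPKM. Within each sex, 36 neighbouring pairs in the order of group levels were compared by exact permutation tests, and the lowest adjusted p was 0.8229. The smallest p these tests allow is 0.029 for 4 against 4 rats and 0.1 for 3 against 3. After adjustment over all 36 pairs, even these smallest values stay above the adjusted p limit given below. No pair could therefore have passed, and no conclusion is drawn from these tests.

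**Figure D1:**
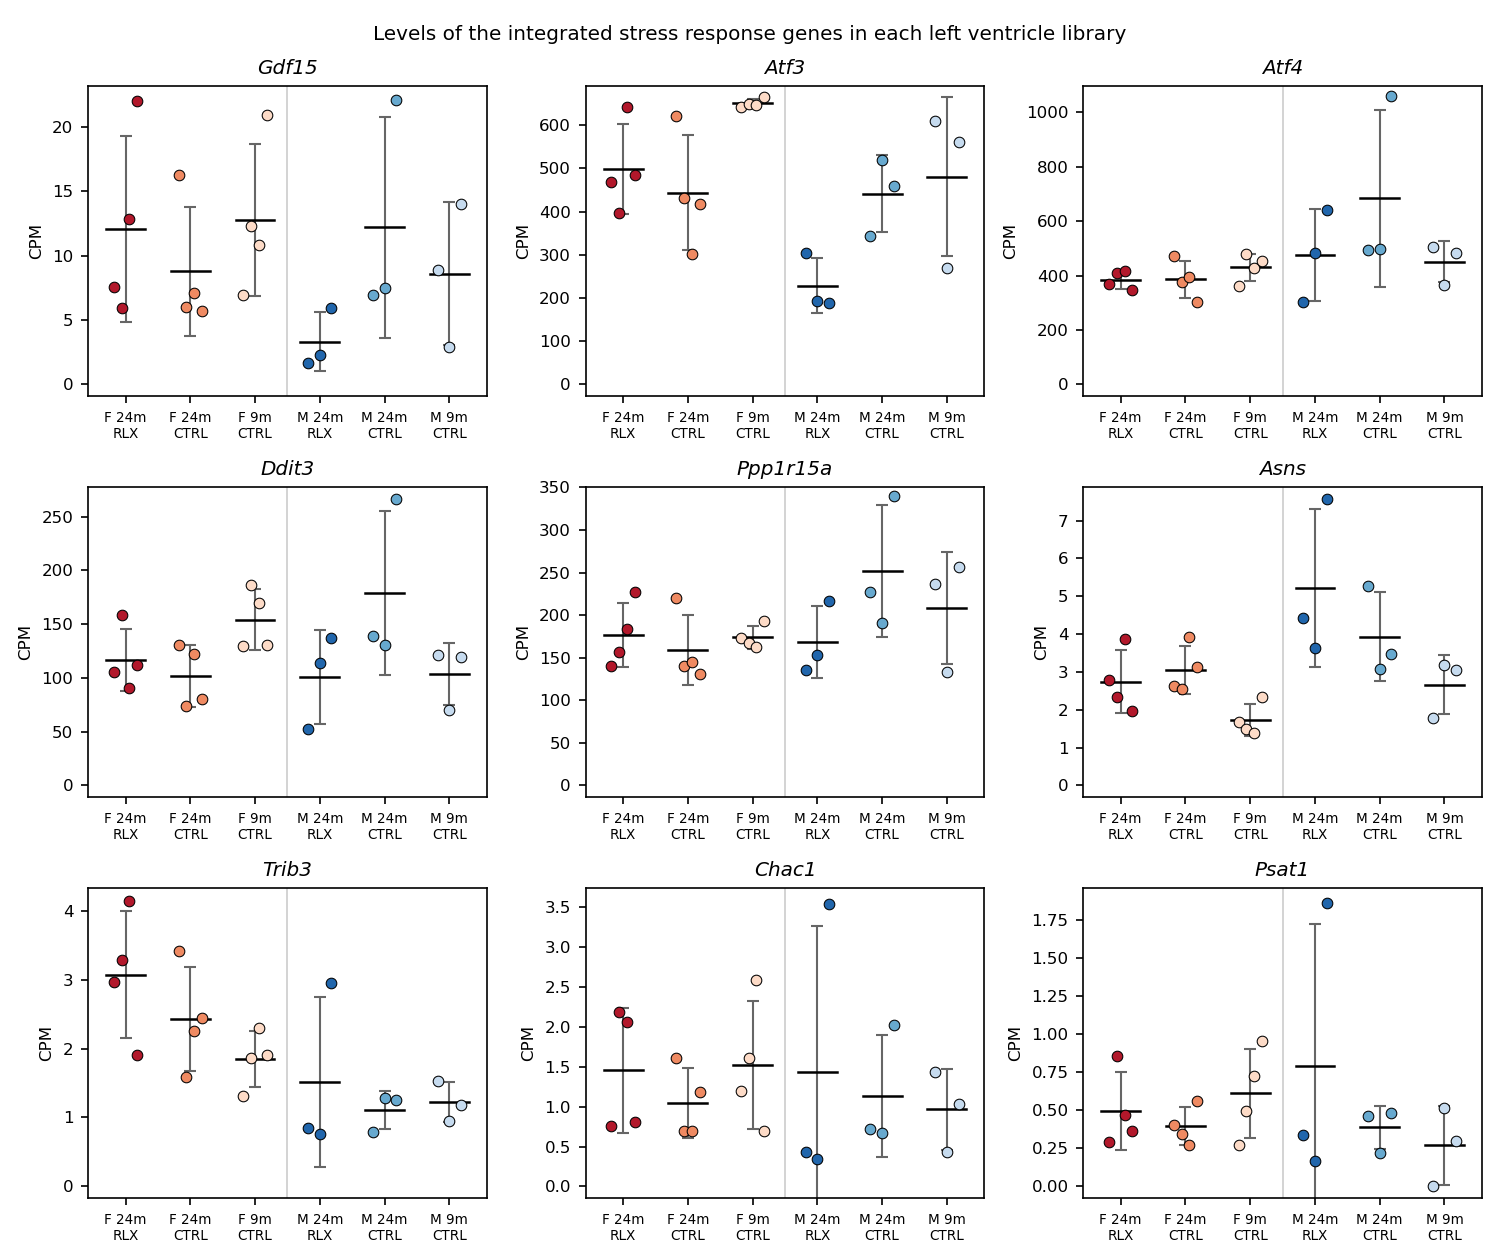
Level of 9 members in each of the 21 libraries, in CPM on a linear axis, by group; points are rats and bars the group mean ± SD (n = 4 female and 3 male rats per group). Female 24-month CTRL rat 2 stands above its group in Gdf15 and Ppp1r15a, male 24-month CTRL rat 12 is the highest male library in Gdf15, Atf4, Ddit3 and Ppp1r15a, and male RLX rat 7 the highest male library in Asns, Trib3, Chac1 and Psat1.

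No member passed the thresholds for a differentially expressed gene (DEG) in any comparison. A DEG had an adjusted p of at most 0.05 by edgeR's quasi-likelihood test with Benjamini-Hochberg adjustment over all tested genes, a fold change above 1.5 and a mean of at least 1 RPKM in either group. Psat1 and Fgf21 were too low to be tested in any comparison, and Chac1 in male RLX over male 24-month CTRL. The other members are given with their values, since none of them passed that test.

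With RLX in aged females, 0 of 8 tested members were DEGs, against 0% of the 12591 genes tested, and none had an adjusted p of at most 0.05. At an unadjusted p under 0.05 there were 0 members, against 14.1% of all genes (6.27% higher and 7.81% lower with RLX). In 0 members were the CPM of the groups without overlap, against 8% of all genes (4.3% higher and 3.7% lower). DESeq2 called 0 members, against 1.48% of all genes as DEGs and 2.94% by adjusted p, edgeR's exact test called 0, against 0.945%, and limma voom called 0. Of the 8 members, 6 were higher and 2 lower with RLX, with a median log2 fold change of 0.17 against -0.01 for all genes tested.

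With age in females, 0 of 8 tested members were DEGs, against 2.77% of the 12696 genes tested, and 0 had an adjusted p of at most 0.05, against 5.35%. At an unadjusted p under 0.05 there were 3 members, against 21.2% of all genes. Asns was higher in 24-month rats, as were 11.6% of all genes, and Atf3 and Ddit3 were lower, as were 9.64%. The CPM did not overlap in 2 members, against 14.1% of all genes: the 24-month libraries lay wholly above the 9-month libraries for Asns (7.03% of all genes) and wholly below them for Atf3 (7.1%). DESeq2 gave 3 members, Asns, Atf3 and Ddit3, an adjusted p of at most 0.05, against 9.51% of all genes, of which Asns was a DEG, against 4.09%. The exact test also called Asns a DEG, against 4.01% of all genes, and voom called 0 members. The 8 members had a median log2 fold change of -0.33, against -0.000516 for all genes tested, and 2 were higher and 6 lower.

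With RLX in aged males, 0 of 7 tested members were DEGs, against 0% of the 12232 genes tested. At an unadjusted p under 0.05 there were 3 members, against 12% of all genes. All 3 were lower, namely Gdf15, Atf3 and Ppp1r15a, against 7.55% of all genes lower and 4.41% higher. The groups did not overlap in 2 members, against 19.9% of all genes: the RLX libraries lay wholly below the CTRL libraries for Gdf15 and Atf3, as they did for 12.5% of all genes, and wholly above them for none, against 7.38%. DESeq2 called Atf3, against 3.75% as DEGs and 4.06% by adjusted p of the 2983 genes to which it gave one, while the exact test called 0 members, against 0.139% of all genes, and voom called 0. The 7 members had a median log2 fold change of -0.55, against 0.01 for all genes tested, with 2 higher and 5 lower.

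With age in males, 0 of 8 tested members were DEGs, against 0% of the 12220 genes tested. At an unadjusted p under 0.05 there was 1 member, against 8.55% of all genes: Ddit3 was higher, as were 2.82%, and 0 members were lower, against 5.73%. Its 24-month libraries lay wholly above the 9-month libraries, as in 7.49% of all genes, while 6.78% lay wholly below them and 14.3% in all did not overlap. DESeq2 called 0 members, against 0.483% as DEGs and 0.516% by adjusted p, the exact test 0, against 0.556%, and voom 0. The median log2 fold change of the 8 members was 0.35, against -0.01 for all genes tested, with 6 higher and 2 lower.

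**Figure D2:**
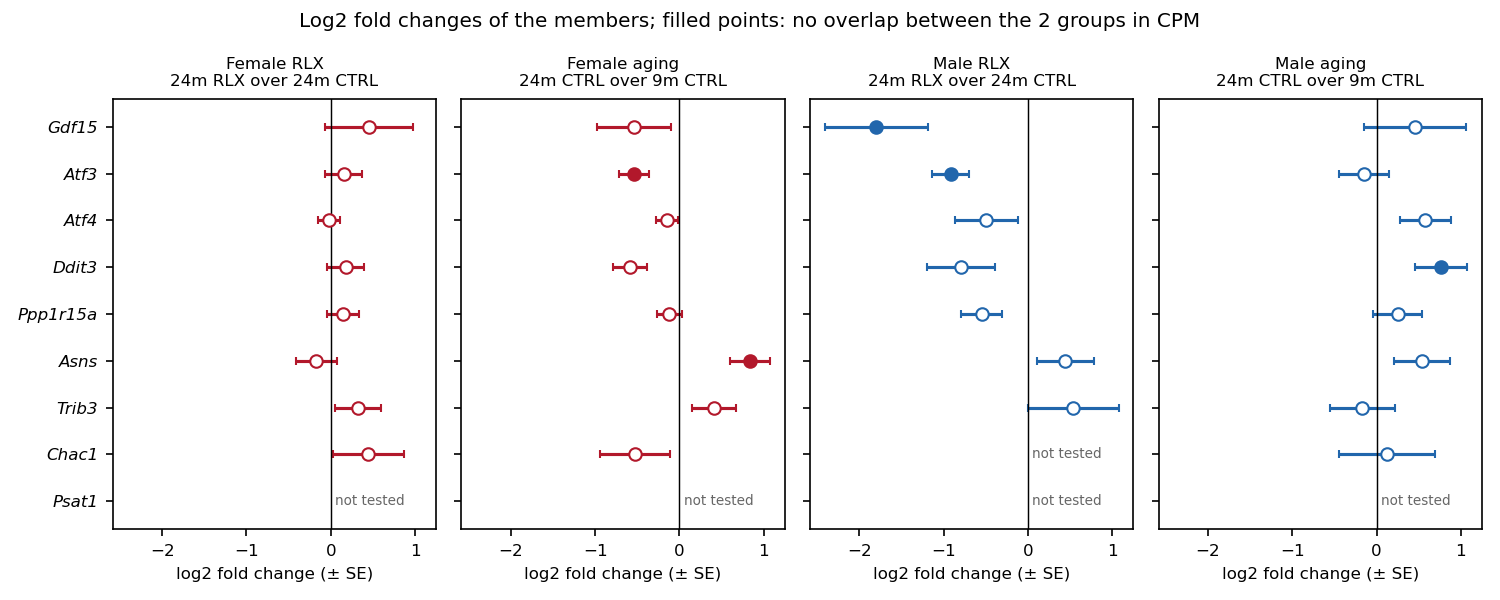
Log2 fold change of each tested member in the 4 comparisons, with bars of 1 standard error from edgeR's fit; filled points mark comparisons in which the CPM of the 2 groups do not overlap. Atf3 and Gdf15 lie at -0.92 and -1.80 in male RLX, Asns at 0.84 and Atf3 at -0.54 in female aging, and Ddit3 at 0.76 in male aging; no point passed the DEG thresholds.

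GDF15 is a secreted member of the TGF-beta superfamily whose receptor GFRAL acts in the hindbrain; Gfral was at 0 in every library. Gdf15 was at 1.70, 2.28 and 5.95 CPM in male RLX (rats 2, 3 and 7; 20, 27 and 99 counts), and at 6.97, 7.52 and 22.1 CPM in male 24-month CTRL (rats 8, 11 and 12; 106, 135 and 230 counts). Male 9-month CTRL rats had 8.88, 2.92 and 14.0 CPM. The 3 RLX libraries lay below all 3 of the 24-month CTRL libraries, though RLX rat 7 at 5.95 CPM was close to CTRL rat 8 at 6.97 CPM. The fitted log2 change for RLX was -1.80 (SE 0.613, adjusted p = 0.341 by edgeR's quasi-likelihood test), and ranged between -2.56 without RLX rat 7 and -1.04 without CTRL rat 12. Over the alternative settings the adjusted p lay between 0.115 and 0.732. The paper reports Gdf15 as lower with RLX in these same male rats, and as significant by its false discovery rate. The direction was the same here, but the call was not reproduced, with an adjusted p of 0.341 by edgeR's quasi-likelihood test. The reason for the different calls was not tested. Since the rats are the same, the lower Gdf15 level is not an independent observation.

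In females Gdf15 was at 7.55, 5.95, 12.9 and 22.0 CPM with RLX (rats 1, 2, 4 and 6), at 16.3, 6.02, 7.10 and 5.70 CPM in 24-month CTRL (rats 2, 4, 5 and 6), and at 6.97, 12.3, 10.9 and 20.9 CPM in 9-month CTRL (rats 1, 3, 4 and 5). The 3 groups overlapped widely. The log2 change was 0.45 (SE 0.520, adjusted p = 0.746) for RLX and -0.53 (SE 0.439, adjusted p = 0.539) for age by edgeR's quasi-likelihood test. The RLX value became -0.0040 without RLX rat 6 and the aging value moved to -1.004 without 24-month CTRL rat 2 and to -0.19 without 9-month CTRL rat 5. In males the aging value was 0.45 (SE 0.603), and turned to -0.28 without 24-month CTRL rat 12.

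FGF21 is a secreted hormone of the fibroblast growth factor family that acts on metabolism. Fgf21 had 19 counts in all over the 21 libraries, was at 0 in 11 of them, and reached 4 counts at most. The limit that a count of 0 allows is 3 counts, which corresponds to 0.2501 CPM in the shallowest library. Of the 21 libraries, 20 were at or below 3 counts, so no fold change was computed, and differences in Fgf21 were not detectable at this depth.

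ATF4 is the transcription factor through which the response acts. In males Atf4 was at 303, 484 and 641 CPM with RLX (rats 2, 3 and 7), 495, 498 and 1059 CPM in 24-month CTRL (rats 8, 11 and 12) and 505, 365 and 484 CPM in 9-month CTRL (rats 2, 3 and 4). The level of 24-month CTRL rat 12 was above that of any other male rat. The log2 change for RLX was -0.49 (SE 0.375, adjusted p = 0.633 by edgeR), and -0.02 without that library; the aging value was 0.58 (SE 0.303), and 0.11 without it. In females Atf4 was at 369.8, 408, 417 and 346 CPM with RLX, 470.2, 375, 395 and 303 CPM in 24-month CTRL and 363, 479.9, 428 and 452 CPM in 9-month CTRL, with log2 fold changes of -0.02 (SE 0.129) for RLX and -0.14 (SE 0.130) for age.

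CHOP, encoded by Ddit3, is the pro-apoptotic C/EBP family protein that acts downstream of ATF4. Ddit3 was at 131, 74.1, 122 and 80.6 CPM in female 24-month CTRL, and at 129.7, 186, 169 and 131 CPM in female 9-month CTRL. The log2 change with age was -0.59 (SE 0.197, adjusted p = 0.118 by edgeR), and the groups overlapped by a small margin, 131 CPM in the highest 24-month library against 129.7 CPM in the lowest 9-month library. In males Ddit3 was at 139, 131 and 267 CPM in 24-month CTRL against 121, 69.8 and 119.7 CPM in 9-month CTRL, with no overlap, and the log2 change was 0.76 (SE 0.312, adjusted p = 0.546), or 0.36 without 24-month CTRL rat 12. With RLX, Ddit3 had 52.5, 114 and 137 CPM in males, against the 3 CTRL values above, with a log2 change of -0.79 (SE 0.406, adjusted p = 0.487), or -0.37 without CTRL rat 12. In females with RLX it had 106, 158, 90.9 and 112 CPM, with a log2 change of 0.18 (SE 0.220) over 24-month CTRL.

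ATF3 is a transcription factor that the stress response induces and that also belongs to the immediate-early genes, which rise within minutes of a stimulus. Atf3 was at 303, 194 and 189 CPM in male RLX, and at 344, 520.5 and 460.3 CPM in male 24-month CTRL. All 3 RLX libraries were below all 3 CTRL libraries. The fitted log2 change was -0.92 (SE 0.220) and missed the threshold, with an adjusted p of 0.283 by edgeR's quasi-likelihood test. The 8 summed cardiomyocyte markers were also lower in all 3 RLX libraries than in any CTRL library, and their part in this was not tested. Leaving out a library gave -1.16 to -0.79, and DESeq2 gave -0.91 with an adjusted p of 0.0160, while a fit whose offsets removed each library's trend on gene length gave -0.88 with an adjusted p of 0.732. In males of 9 months Atf3 was at 611, 270.3 and 561 CPM, and the aging value was -0.15 (SE 0.294).

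In females Atf3 was at 469, 397, 643 and 484 CPM with RLX, 622, 432, 302 and 418 CPM in 24-month CTRL and 643, 650.1, 646 and 666 CPM in 9-month CTRL. The 9-month libraries were close together and all above the 24-month CTRL libraries, with a log2 change of -0.54 with age (SE 0.175, adjusted p = 0.102 by edgeR). Without 24-month CTRL rat 2 the value was -0.74, with an adjusted p of 0.0185, and without 24-month CTRL rat 5 it was -0.39. DESeq2 gave -0.54 with an adjusted p of 0.0411, under the fold change of 1.5 asked of a DEG. With RLX the value was 0.15 (SE 0.218, adjusted p = 0.801).

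GADD34, encoded by Ppp1r15a, brings the phosphatase that removes the phosphate from eIF2 and so ends the response. Ppp1r15a was at 136, 153 and 217 CPM in male RLX, 227, 190.2 and 339 CPM in male 24-month CTRL and 236, 133 and 256 CPM in male 9-month CTRL. The log2 change for RLX was -0.55 (SE 0.244, adjusted p = 0.417 by edgeR), and -0.26 without CTRL rat 12. In females it was at 141, 157, 183 and 227 CPM with RLX, 219.7, 139.8, 145 and 131 CPM in 24-month CTRL and 174, 168, 162 and 193 CPM in 9-month CTRL, and the log2 fold changes were 0.14 (SE 0.191) for RLX and -0.12 (SE 0.147) for age.

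TRIB3 is a pseudokinase that restrains ATF4 and CHOP, and CHAC1 breaks down glutathione. Both genes had few counts: Trib3 lay between 0.759 and 4.14 CPM, and Chac1 between 0.337 and 3.55 CPM over the 21 libraries. Trib3 was at 0.850, 0.759 and 2.94 CPM in male RLX and 0.789, 1.28 and 1.25 CPM in male 24-month CTRL, with a log2 change of 0.54 (SE 0.535) that turned to -0.41 without RLX rat 7. In females it was at 2.96, 3.29, 4.14 and 1.90 CPM with RLX, 3.42, 1.59, 2.26 and 2.44 CPM in 24-month CTRL and 1.31, 1.86, 2.29 and 1.91 CPM in 9-month CTRL. Chac1 had 5, 4 and 59 counts in male RLX (rats 2, 3 and 7) against 11, 12 and 21 counts in male 24-month CTRL (rats 8, 11 and 12). In females Chac1 averaged 1.46 ± 0.781 CPM with RLX, 1.05 ± 0.441 CPM in 24-month CTRL and 1.52 ± 0.807 CPM in 9-month CTRL (SD, n = 4 each), so its groups overlapped.

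ASNS makes asparagine from aspartate and glutamine. Asns was at 2.61, 2.56, 3.93 and 3.13 CPM in female 24-month CTRL against 1.69, 1.49, 1.39 and 2.34 CPM in female 9-month CTRL. All 4 aged libraries were above all 4 younger ones, with a log2 change of 0.84 (SE 0.232, adjusted p = 0.0566 by edgeR's quasi-likelihood test). It was 0.70 with an adjusted p of 0.130 without 24-month CTRL rat 5, and 1.02 with an adjusted p of 0.0385 without 9-month CTRL rat 5. DESeq2 gave an adjusted p of 0.0277, the exact test 0.0201 and voom 0.0586. Leaving out 1 library gave 0.0385 to 0.168 by edgeR's quasi-likelihood test. The range over all alternatives, a block on rat number among them, was 0.0201 to 0.845. With RLX, Asns was at 2.79, 2.35, 3.87 and 1.97 CPM in females, overlapping 24-month CTRL, with a log2 change of -0.17 (SE 0.240).

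In males Asns was at 4.42, 3.63 and 7.57 CPM with RLX, 5.26, 3.06 and 3.46 CPM in 24-month CTRL and 1.78, 3.18 and 3.04 CPM in 9-month CTRL. The log2 change was 0.44 (SE 0.335) for RLX, or 0.07 without RLX rat 7, and 0.53 (SE 0.333) for age. PSAT1 carries out the transamination step of serine synthesis. Psat1 had 4, 2 and 31 counts in male RLX (rats 2, 3 and 7), against 7, 4 and 5 counts in male 24-month CTRL, and in females its group means lay between 0.395 and 0.612 CPM. Male RLX rat 7 was thus the highest male library in Asns, Trib3, Chac1 and Psat1, which is 4 of the 9 members other than Fgf21, while it was the highest male library in 10.66% of the 13229 genes. Male 24-month CTRL rat 12 was highest in Gdf15, Atf4, Ddit3 and Ppp1r15a, against 15.55% of all genes.

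An interaction term compared the response of females with that of males, and is given as the female minus the male log2 fold change. For RLX, Atf3 differed by 1.10 (SE 0.344, adjusted p = 0.178 by edgeR) and Gdf15 by 2.26 (SE 0.891, adjusted p = 0.286), and both had an unadjusted p under 0.05, which 14.1% of the 13017 genes had. No member had an adjusted p of at most 0.05 there, against 0% of all genes. For age, Ddit3 differed by -1.38 (SE 0.403, adjusted p = 0.0794) and Atf4 by -0.75 (SE 0.338, adjusted p = 0.2305), with an unadjusted p under 0.05 in 19.9% of the 13090 genes. The Ddit3 difference lay between -1.57 and -0.96 when 1 library was left out. None of the members passed an adjusted p of 0.05 for age, against 3.02% of all genes.

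Around the group means, Gdf15 and Ppp1r15a varied together across rats. The relation was computed on log2 CPM minus each group's mean, with a two-sided permutation of rats within groups, as 1 of 51 relations. Pearson's r was 0.87 in the 12 female libraries (exact permutation p = 0.00405, adjusted p = 0.0517) with a Spearman's rho of 0.78 (exact permutation p = 0.0152), and 0.97 in the 9 male libraries (exact permutation p = 0.00926, adjusted p = 0.0675) with a rho of 0.95. Over all 21 libraries r was 0.93 (permutation p = 0.0001, adjusted p = 0.00255) and rho 0.87 (adjusted p = 0.00689). Without the 2 libraries farthest from the median of Gdf15, r was 0.70 in females, 0.95 in males and 0.91 in all.

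Atf4 also varied with Gdf15 around the group means when the libraries of both sexes were pooled. Its r with Gdf15 was 0.70 over the 21 libraries (permutation p = 0.00221, adjusted p = 0.0376), 0.86 in the 9 male libraries (exact permutation p = 0.0139, adjusted p = 0.0885) and 0.43 in the 12 female libraries (exact permutation p = 0.192); the difference between the sexes was not tested. Ddit3 had an r with Gdf15 of 0.87 in males (adjusted p = 0.105 by exact permutation, n = 9) and of 0.09 in females. Among all 13229 genes the 5 with the highest r with Gdf15 across the 21 libraries were Oasl at 0.938, Rel at 0.934, Ppp1r15a at 0.927, Rasgef1b at 0.919 and Tnfaip2 at 0.905, given as a description of libraries that share depth and processing.

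Atf3 varied with the other immediate-early genes. Its r with the summed level of that list was 0.85 in females (exact permutation p = 0.00868, adjusted p = 0.0675, n = 12), 0.99 in males (exact permutation p = 0.00926, adjusted p = 0.0675, n = 9) and 0.85 over all 21 libraries (permutation p = 4e-05, adjusted p = 0.00204), and without the 2 farthest libraries 0.64 in females, 0.98 in males and 0.84 in all. With Gdf15 its r over all libraries was 0.44 (adjusted p = 0.382). Atf3's closest genes across the 21 libraries were Mid1ip1 at an r of 0.900, Gadd45g at 0.859, Btg2 at 0.850, Junb at 0.847 and Nr4a1 at 0.841, and those of Asns were Tmed9 at 0.826, Pradc1 at 0.814, Ptma_2 at 0.767, Anxa2 at 0.751 and Maged2 at 0.751.

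**Figure D3:**
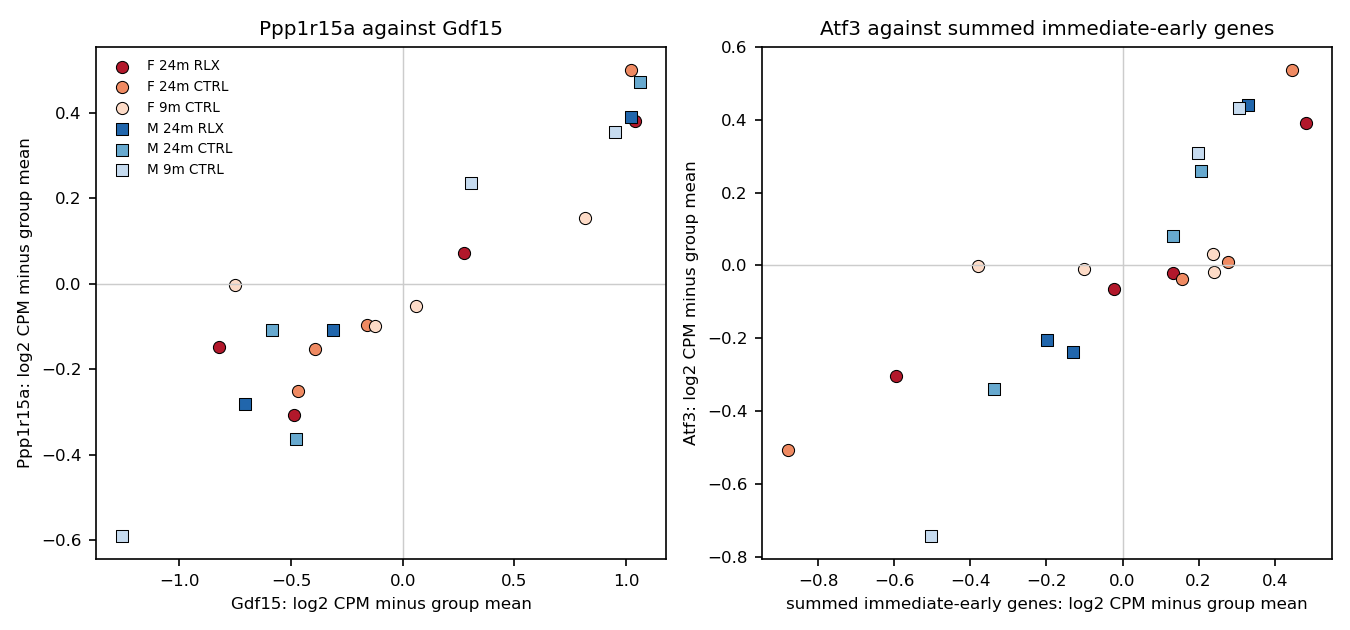
Ppp1r15a against Gdf15 and Atf3 against the summed immediate-early genes, each in log2 CPM minus the group mean, 1 point per library (circles female, squares male). The points follow a line in both panels, with an r of 0.93 for Ppp1r15a and Gdf15 and 0.85 for Atf3 and the immediate-early genes over the 21 libraries.

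The immediate-early genes other than Atf3, counted as 17 tested genes in males, were all lower with RLX, with a median log2 fold change of -0.91 against 0.01 for all genes tested; 11 had an unadjusted p under 0.05 and in 7 the groups did not overlap, against 7.55% and 12.5% of all genes. Their summed level was 1751, 1213 and 1274 CPM in male RLX (rats 2, 3 and 7) and 1946, 2836 and 2695 CPM in male 24-month CTRL (rats 8, 11 and 12). None was a DEG: Egr1, a zinc finger transcription factor of the list, had 300.5, 259 and 244 CPM in male RLX against 395, 529 and 548 CPM in male 24-month CTRL (log2 fold change -0.84, SE 0.164, adjusted p = 0.283 by edgeR). In the sex difference of the RLX effect, 18 of 18 were positive, with a median of 1.11, and none passed an adjusted p of 0.05. In the other comparisons 15 of 18 were lower with age in females (median -0.50, 2 lower at an unadjusted p under 0.05, against 9.64% of all genes), 13 of 17 were lower with age in males (median -0.37, 1 lower at an unadjusted p under 0.05, against 5.73%), and 11 of 18 were higher with RLX in females (median 0.15, 0 at an unadjusted p under 0.05), and none was a DEG there.

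Other parts of the pathway, and genes of other responses such as the immediate-early and heat shock genes, were followed through 10 lists of genes. In female aging, members left out, 9 of the 129 tested list genes (6.98%) had an adjusted p of at most 0.05 by edgeR, against 5.35% of all genes. Of the 129 tested list genes, 4 were DEGs, against 2.77% of all genes tested. The kinases that phosphorylate eIF2, with the subunits of its phosphatases and of eIF2B, had a median log2 fold change between -0.06 and 0.12 over the 4 comparisons, and the partners and feedback regulators of ATF4 and CHOP between -0.11 and 0.04. In the eIF2 list, Impact, an inhibitor of an eIF2 kinase, was lower in female aging without overlap (-0.38, adjusted p = 0.0383 by edgeR). It was not a DEG, and of the 16 tested genes of that list 6 were higher and 10 lower there. In male RLX it was higher without overlap (0.41, adjusted p = 0.403 by edgeR). The serine and one-carbon genes had medians of -0.17, 0.09, -0.12 and 0.19 for female RLX, female aging, male RLX and male aging, and Mthfd2, the mitochondrial folate enzyme, was a DEG in female aging. Mthfd2 rose with a log2 change of 0.59 (SE 0.152, adjusted p = 0.0465 by edgeR), with 14.7, 10.9, 14.0 and 14.9 CPM in 24-month CTRL against 8.17, 10.9, 7.24 and 10.4 CPM in 9-month CTRL, a call kept only without 24-month CTRL rat 4 or without 9-month CTRL rat 3 among the 8 fits that left out a library (adjusted p 0.0388 to 0.146). Got1, of the same list, was lower in female aging without overlap (-0.48, SE 0.0918, adjusted p = 0.0179 by edgeR). Its fold change was under that asked of a DEG. Leaving out a library gave -0.51 to -0.43 (adjusted p 0.0197 to 0.0701). Of the 13 tested genes of that list, 8 were higher and 5 lower there. The list summed to 369.4 to 415.7 CPM in 24-month CTRL and 495.3 to 573.0 CPM in 9-month CTRL, of which Got1 averaged 333.1 and 468.3 CPM. The 14 aminoacyl-tRNA synthetases had medians of -0.00, -0.08, 0.09 and 0.25 in the same order of comparisons. In male aging all 14 were higher, 2 at an unadjusted p under 0.05, against 2.82% of all genes, and 5 without overlap of the groups, against 7.49% of all genes, and none was a DEG.

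Among the amino acid transporters, Slc38a2, which carries neutral amino acids into the cell, fell in aged females. It was at 224, 176, 264 and 248 CPM in female 24-month CTRL against 453, 431.5, 406 and 329 CPM in female 9-month CTRL, with a log2 change of -0.82 (SE 0.135, adjusted p = 0.00975 by edgeR), called in all 8 fits without 1 library. In males it was at 346.5, 236 and 510.3 CPM in 24-month CTRL against 213, 159 and 212 CPM in 9-month CTRL, with a log2 change of 0.88 (SE 0.274, adjusted p = 0.424), and the female minus male difference was -1.72 (SE 0.311, adjusted p = 0.0167, or 0.0522 without male 9-month CTRL rat 4). The endoplasmic reticulum chaperones had medians between -0.06 and 0.06 and the mitochondrial stress genes between -0.23 and 0.18. In female aging Dnajb9 was lower (-0.58, adjusted p = 0.0281 by edgeR), while Creld2 (0.48, 0.0338) and Hspe1 (0.55, 0.0283) were higher. None of these was a DEG. Of the 11 mitochondrial genes, 6 were lower there at an unadjusted p under 0.05, against 9.64% of all genes, and 2 higher, against 11.6%. Heat shock genes had medians of -1.58, 1.29, -0.60 and -0.34 in the 4 comparisons, and in female aging the DEGs among them were Hsph1 (log2 fold change 2.13, SE 0.348, adjusted p = 0.0213) and Hsp90aa1 (1.29, SE 0.226, adjusted p = 0.0176). Without 9-month CTRL rat 1 or rat 4 neither passed, with adjusted p between 0.0621 and 0.0812. In these 8 female libraries the summed cardiomyocyte, macrophage and fibroblast markers, given above, did not overlap between the groups either. Their part in the Asns, Atf3, Slc38a2, Mthfd2, Got1, Impact and chaperone values was not tested.

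**Figure D4:**
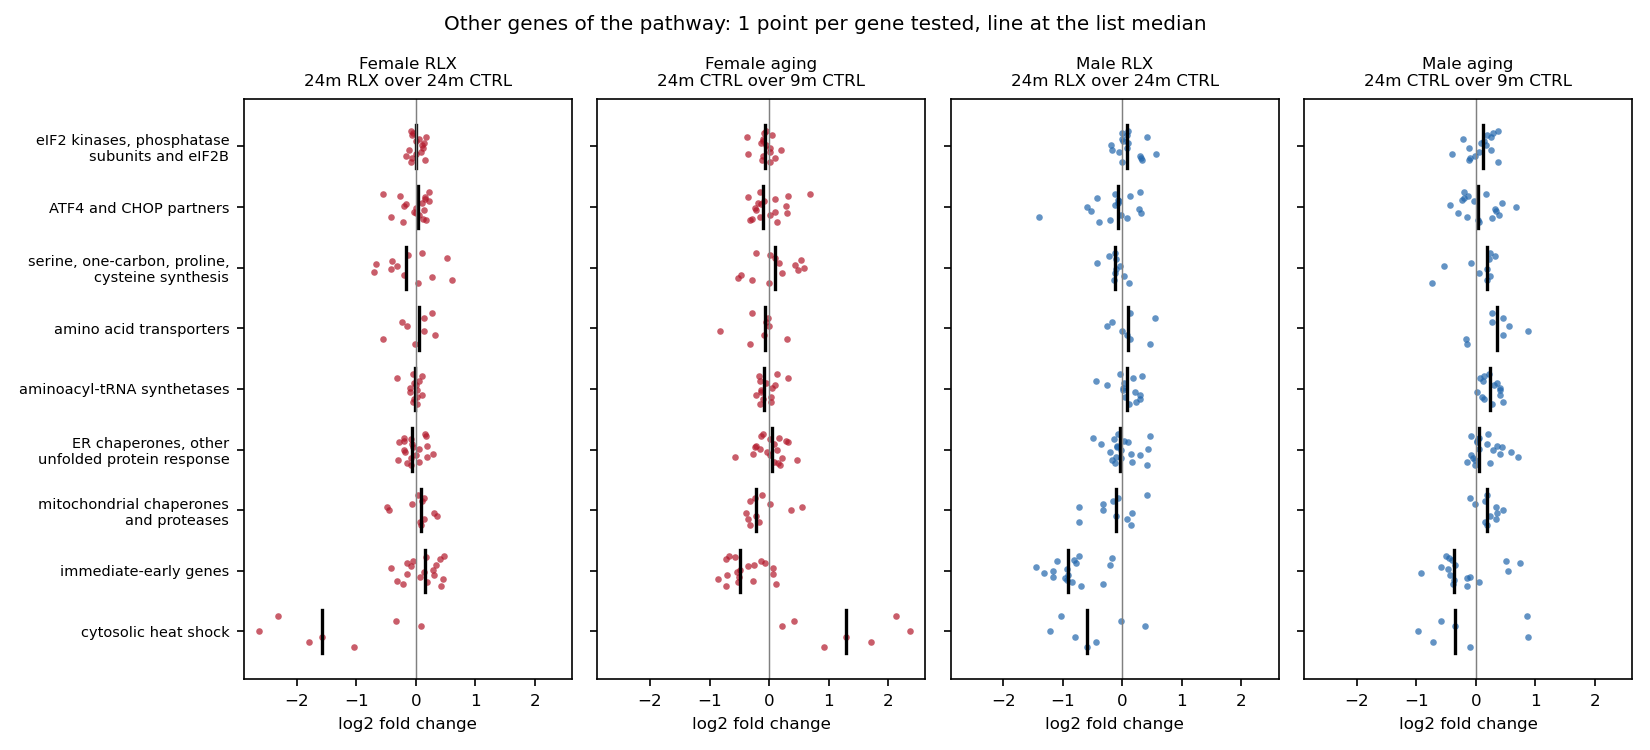
Log2 fold change of each tested gene in 9 gene lists, in the 4 comparisons, with the list median as a line. The lists hold parts of the pathway and genes of other responses, among them the immediate-early and heat shock lists. The immediate-early list lies at a median of -0.91 in male RLX and the heat shock list at -1.58 in female RLX and 1.29 in female aging, while the eIF2 kinase list stays between -0.06 and 0.12.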

How the data were processed

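Total RNA from left ventricle, depleted of ribosomal RNA, was sequenced as paired 75-base reads, and the authors mapped it to the rat genome with Biomedical Genomics Workbench (build not given in the sources used here). Deposited total counts, which are raw, were tested, and the deposited RPKM values served only for levels between genes and for the DEG expression minimum. The other 56 deposited columns of sample values, in TPM and CPM, were not used. Counts were filtered with filterByExpr and scaled with TMM in edgeR 4.0.16 (R 4.3.3), and each comparison was fitted alone with the robust quasi-likelihood test, with Benjamini-Hochberg adjustment over all tested genes. SE is the log2 fold change divided by the root of F. CPM here are counts scaled with TMM over the 21 libraries, with a prior count of 2 in log2 values. DESeq2 1.42.0, limma voom 3.58.1, the exact test, other scalings and filters, a replicate block and leaving out each library were alternatives. Named members were the 10 given; from each list any DEG and up to 4 genes of smallest p per comparison could be named, and the 5 genes of highest r with Gdf15, Atf3 and Asns. Members and lists were chosen with earlier results of these data known. The tests were tested on simulated data. At an adjusted p of at most 0.05, edgeR's quasi-likelihood test recovered 35.8% of 1.5-fold changes in female RLX and 41.8% in female aging. In males it recovered 7.46% for RLX and 2.99% for aging. For 2-fold changes the shares were 70.1%, 79.1%, 41.8% and 44.8% in that order. False calls numbered 6 to 12 per comparison. Changes of this size could therefore be missed, most often in males.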

Additional observations from a re-analysis of the deposited data

Results flagged for a closer look

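Female 24-month CTRL rat 2 stood apart from the other 3 rats of its group in 2 members. Its Gdf15 level was 16.3 CPM, against 5.70 to 7.10 CPM in the other rats, and its Ppp1r15a level was 219.7 CPM, against 131 to 145 CPM in the other rats. These were 2 of 27 group values checked in the 9 members, and chance flags about 5% of group values. The 27 values do not cover every member in all 6 groups. Male libraries also stood apart. Gdf15 was at 22.1 CPM in male 24-month CTRL rat 12, against 6.97 and 7.52 CPM in rats 8 and 11. Chac1 had 59 counts in male RLX rat 7, against 5 and 4 counts in rats 2 and 3.

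The aging effect differed between the sexes, by the interaction test, in 5 of the 130 list genes tested (3.85%, against 3.02% of all genes), so the share in the lists was near that of all genes. The female minus male difference was -1.72 for the transporter Slc38a2 (female -0.82, male 0.88; passing in 13 of 14 fits that left out a library), -1.31 for Dnajb9, an endoplasmic reticulum co-chaperone (female -0.58, male 0.70; 7 of 14), -0.76 for Hspa9, a mitochondrial chaperone (female -0.38, male 0.35; 4 of 14), -0.69 for Hspa5, the endoplasmic reticulum chaperone BiP (female -0.23, male 0.44; 2 of 14), and -0.66 for Impact, an inhibitor of an eIF2 kinase (female -0.38, male 0.26; 4 of 14). The adjusted p by edgeR was between 0.0167 and 0.0471. In the same test all 6 macrophage markers and 3 of the 6 fibroblast markers passed an adjusted p of 0.05, with the female minus male difference positive, and their part in the 5 values was not tested.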

How the results depend on the processing

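No member was a DEG under the main test in any comparison, nor with RLE scaling, no filter, the 3-group fit, voom, the length trend removed or the adjusted p alone. The member DEG count in female aging was 1 by DESeq2 and 1 by the exact test (Asns in both), and 0 to 1 when a library was left out: 1 without 24-month CTRL rat 2 (Atf3) and 1 without 9-month CTRL rat 5 (Asns). In male RLX it was 1 by DESeq2 (Atf3). DEG counts over all genes differed by tool: by the quasi-likelihood test, DESeq2 and the exact test they were 0, 143 and 119 in female RLX, 352, 519 and 509 in female aging, 0, 112 and 17 in male RLX, and 0, 59 and 68 in male aging.

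Rat numbers did not pair the libraries (correlations of deviations -0.189 to 0.153), and the male groups compared share no rat number. With a replicate block on the rat number in females, Atf4 with RLX became 0.029 and Trib3 with age -0.11. The 4 list DEGs of female aging did not pass under the block (Mthfd2 0.52, Slc38a2 -0.75 with an adjusted p of 0.708 by edgeR, Hsp90aa1 1.3, Hsph1 2.16). The groups of that comparison share only rat numbers 4 and 5. Their age effect under the block rests on those libraries alone, so the lost calls say little about the DEGs.

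Leaving out 1 library turned the sign of small values: in female RLX, Gdf15 ranged from -0.0040 to 0.93, Atf3 from -0.0017 to 0.37, Atf4 from -0.12 to 0.10 and Ppp1r15a from -0.0035 to 0.35. In male RLX Trib3 ranged from -0.41 to 0.85. In male aging Gdf15 ranged from -0.28 to 1.02, Atf3 from -0.43 to 0.062, Trib3 from -0.31 to 0.042, Chac1 from -0.50 to 0.51 and Ppp1r15a from -0.025 to 0.44. In the sex difference of RLX, Trib3 ranged from -0.50 to 0.75 and Chac1 from -0.68 to 1.91. DESeq2 gave no adjusted p for 13 values, which are left out. Fgf21 and Psat1 are limited by depth.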
